A study of Mus musculus with 12 samples.

Results

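RNA-seq of the small intestine was compared between 4 Zip4 knockout (KO) mice and 4 wild type (WT) mice, which are 8 of the 12 libraries in the study and were chosen by the genotype in their labels. Each library is labelled as whole small intestine of a C57BL/6 mouse with an age of its own, and the tissue was flash frozen. The labels give no promoter, Cre line or deleted exon for the knockout, and all 8 mice are labelled male except KO amino 2. The zinc in the diet was held in an organic complex, attached at its amino or at its hydroxy end. The KO mice ate 40 ppm zinc, 2 of them (198 and 228 days old) in the amino complex and 2 (237 and 240 days old) in the hydroxy complex. The WT mice ate 15 ppm zinc, 2 of them (210 and 218 days) in the amino complex and 2 (237 and 221 days) in the hydroxy complex. The other 4 libraries, from heterozygous (HET) mice aged 141 to 363 days on 15 ppm zinc in either complex, enter the estimate of the spread and are set beside the values of the main genes. The text on the series as a whole names 15 ppm zinc for all mice. By the labels of the samples, genotype and zinc level change together between KO and WT and cannot be told apart. The labels name no litter, cage or batch, so the p-values measure the spread between these mice.

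Zip4, whose gene symbol is Slc39a4, is a transporter of the ZIP family that carries zinc from the gut lumen into the enterocyte across its apical membrane. Mutations of the human gene cause acrodermatitis enteropathica, a zinc deficiency of infancy that is treated with oral zinc. Inside the cell, metallothioneins bind zinc, the transcription factor MTF1 senses it, and transporters of the ZnT family move it into vesicles or out of the cell.

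Expression is given as CPM, read counts of a gene scaled to the depth of the library, as the authors deposited it. A log2 change is the difference between the mean of KO and the mean of WT on the log2(CPM + 1) scale, each complex weighing the same, and is positive where KO is higher. A gene is called where its p-value from limma, adjusted over all 14001 genes tested, is under 0.05. Values of 4 libraries are listed in the order amino 1, amino 2, hydroxy 1 and hydroxy 2.

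Some libraries stood apart from their labels or their group. Against its male label, KO amino 1 had Xist at 244 CPM and no reads of the Y-linked Ddx3y. Against its female label, KO amino 2 had Xist at 0.155 CPM and Ddx3y at 32.2 CPM. Both are KO libraries on the amino complex. The ileal gene Fabp6, whose product carries bile acids, reached 259 CPM in WT hydroxy 1 and 99.3 CPM in HET amino 2. All other libraries held less than 1 CPM of it, although each is labelled whole small intestine. Slc10a2, also on the ileal list, held 8.32 CPM in WT hydroxy 1, 9.48 CPM in HET amino 2 and less than 1 CPM elsewhere. How much ileum each library holds was not tested. Depths over the 12 libraries ran from 26031951 to 38790537 reads, at which 3 reads correspond to 0.0773 to 0.115 CPM, a limit for counting error only.

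The targeted gene was lower in every KO library than in any WT library. Slc39a4 (chromosome 15, 76612383 to 76616853, minus strand, mm10) held 90.1, 91.6, 42.0 and 64.8 CPM in KO, against 256, 218, 256 and 188 CPM in WT. The groups were separate (log2 change −1.71, SE 0.28, adjusted p = 0.0736), and an exact two-sided permutation test gave p = 0.02857, the smallest that 4 against 4 libraries allow. HET libraries held 117, 249, 145 and 267 CPM. The sources used here do not say which part of the gene is deleted, so the reads left in KO cannot be placed. In whole tissue, fewer cells of a type and less RNA per cell cannot be told apart. The 10 nearest tested neighbours of Slc39a4 had log2 changes from −0.38 to 0.36, with no adjusted p under 0.438.

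The other genes of zinc handling did not move as a group. Of 12 tested zinc importers of the ZIP family, Slc39a4 was the only gene with an unadjusted p under 0.05, and the median log2 change was 0.10. Of 8 tested zinc exporters of the ZnT family, 1 was higher and 1 lower at that level (6.8% and 2.99% of all genes). Slc30a2, which loads zinc into vesicles, held 29.3, 50.2, 33.4 and 17.2 CPM in KO, against 85.5, 57.9, 57.3 and 50.5 CPM in WT. Each KO library was below each WT library, without passing the adjusted test (log2 change −0.99, SE 0.29, adjusted p = 0.32). Slc30a10, a manganese exporter, held 37.3, 62.4, 43.1 and 16.8 CPM in KO, against 26.2, 16.8, 17.7 and 26.5 CPM in WT (0.73, SE 0.31, adjusted p = 0.493). The metallothionein gene Mt1 held 10.7, 11.2, 15.4 and 76.8 CPM in KO, against 28.4, 44.1, 26.5 and 50.1 CPM in WT. It was below all 4 WT libraries in 3 KO libraries and above all 4 in KO hydroxy 2, and it was not called (−0.84, SE 0.45, adjusted p = 0.566). Mt2 had the same outlying library, with 1.49, 1.02, 2.76 and 13.1 CPM in KO, against 1.74, 4.05, 2.27 and 7.18 CPM in WT. Mtf1, the zinc sensor, held 30.3, 25.7, 28.0 and 18.1 CPM in KO, against 34.0, 38.7, 35.0 and 27.4 CPM in WT (−0.40, SE 0.27, adjusted p = 0.621).

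Across all genes, 4 of 14001 were called (0.0286%), of which 3 rose in KO (0.0214%: H2-Q10, Oas1b and Oas2) and 1 fell (0.00714%: Krba1). In each of the 4, every KO library lay outside the range of the 4 WT libraries. At an unadjusted p under 0.05 there were 1370 genes (9.79%), 952 of them higher (6.8%) and 418 lower in KO (2.99%). Groups that did not overlap were found for 409 genes with KO above WT (2.92%) and 360 with KO below WT (2.57%). Of all genes 52.5% had a log2 change above 0, and groups did not overlap for 769 (5.49%). The median log2 change over all genes was 0.02. Counts of list members are read against these shares, and the lists were not tested as sets. The shares change with a library left out. At an unadjusted p under 0.05, both the higher and the lower share fell without KO amino 1, KO amino 2, WT amino 1 or WT hydroxy 2. The higher share also fell without KO hydroxy 2 or WT hydroxy 1. A lower list count in such a fit is thus no measure of that list alone. The plot of change against p shows the called genes and 4 of the lists.

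**Figure D1:**
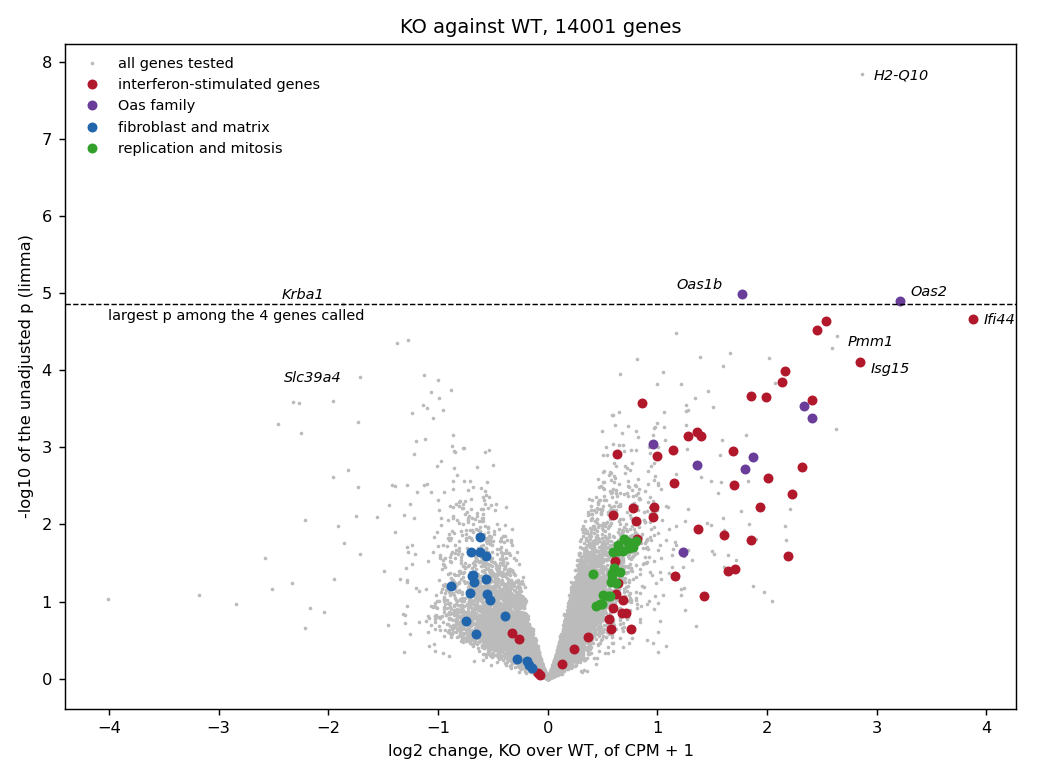
Each point is 1 of 14001 genes, with the log2 change of KO over WT (of CPM + 1) on the x axis and minus log10 of the unadjusted limma p on the y axis, and coloured points are members of 4 gene lists. The interferon-stimulated and Oas genes lie to the right (medians 1.15 and 1.80), the fibroblast genes to the left (median −0.62), and H2-Q10 stands far above the dashed line of the largest p among the 4 genes called.

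H2-Q10 rose with the smallest p of all genes tested, and each KO library stood above every WT and HET library. The gene encodes a secreted MHC class I molecule of the Qa region, known mainly as a product of the liver. H2-Q10 (chromosome 17, 35470089 to 35474564, plus strand) held 25.3, 26.1, 68.5 and 51.8 CPM in KO, against 3.23, 3.48, 6.40 and 5.45 CPM in WT. HET libraries held 4.73, 3.99, 4.80 and 4.85 CPM. The means were 42.9 ± 21 CPM in KO and 4.64 ± 1.54 CPM in WT (SD, n = 4 each), with a log2 change of 2.88 (SE 0.17, adjusted p = 2.0e-04, limma). It was called within each complex as well, at 2.62 in amino (adjusted p = 0.0114) and 3.13 in hydroxy (adjusted p = 0.00223). The call held under each of the 24 other settings tried, from an adjusted p of 5.6e-05 to 0.0285.

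Liver markers were low in KO and WT alike. Of 9 liver markers, 6 were in the table and 2 passed the filter on low values. Alb, the albumin gene, held at most 0.465 CPM in KO and at most 0.459 CPM in WT. The 6 markers summed to 3.86, 9.76, 8.01 and 12.8 CPM in KO, against 3.86, 4.82, 6.83 and 13.9 CPM in WT, with overlapping groups.

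The other H2-Q genes, which lie beside H2-Q10, had smaller log2 changes, and none was called. Between H2-Q1 and H2-Q10 (chromosome 17, 35320558 to 35474564), 8 H2-Q genes were tested, of which 4 had an unadjusted p under 0.05, all higher in KO. Of the 8, H2-Q10 alone had groups without overlap. H2-Q4 held 88.3, 47.1, 96.2 and 60.9 CPM in KO, against 33.4, 59.4, 53.3 and 41.1 CPM in WT (log2 change 0.61, SE 0.25, adjusted p = 0.476). H2-Q8 (1.02, adjusted p = 0.493) and H2-Q9 (1.23, adjusted p = 0.476) were higher at that unadjusted level too. Values of H2-Q7, H2-Q8 and H2-Q9 are uncertain, since these genes are nearly identical and the sources used here do not say how shared reads were counted. H2-Q1 (−0.30, adjusted p = 0.641) and H2-Q2 (−0.27, adjusted p = 0.69) had log2 changes below 0. These neighbours were chosen for their position after the values were seen.

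Genes of antigen presentation by MHC class I were mostly higher in KO, and H2-Q10 was the only one called. Of 26 tested, 4 had an unadjusted p under 0.05, all of them higher (6.8% of all genes). KO lay above WT without overlap in 3 (2.92% of all genes). A log2 change above 0 was found in 21 (52.5% of all genes), with a median of 0.42. H2-T24, a further non-classical molecule, held 4.24, 2.39, 9.69 and 4.15 CPM in KO, against 1.01, 1.94, 2.34 and 2.07 CPM in WT (1.0, SE 0.29, adjusted p = 0.32). The classical H2-K1 stood at 0.58 (SE 0.25, adjusted p = 0.503), with its 4 KO libraries above its 4 WT libraries. The count of 4 was 2 without KO amino 1, WT amino 1 or WT hydroxy 2, and without KO hydroxy 1 it was 2 higher and 2 lower. It was 7 without KO hydroxy 2 or WT hydroxy 1, 8 without KO amino 2 and 9 without WT amino 2. Leaving out WT amino 1 gave a median of 0.23, and leaving out WT hydroxy 2 gave 0.25. Tap1, a subunit of the peptide transporter, held 145, 73.1, 217 and 124 CPM in KO, against 31.5, 102, 109 and 45.2 CPM in WT, with overlap (1.03, adjusted p = 0.512). Genes of MHC class II presentation had a median of −0.38, and 0 of 11 had an unadjusted p under 0.05. The sign of that median turned with single libraries, to 0.32 without WT hydroxy 1, 0.21 without WT amino 2 and 0.094 without KO amino 2, and it was −1.02 without WT hydroxy 2.

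Oas genes were higher in KO, and 2 of them rose at the adjusted threshold. Their products, the 2′-5′-oligoadenylate synthetases, are induced by interferon, sense double-stranded RNA and make the messenger that activates RNase L. Oas2 (chromosome 5, 120730333 to 120749849, minus strand) held 22.1, 7.75, 57.1 and 33.1 CPM in KO, against 0.411, 2.61, 2.66 and 1.90 CPM in WT. The lowest KO library, amino 2, still lay above the highest WT library, and HET libraries held 2.17, 1.10, 1.38 and 1.75 CPM. The log2 change was 3.21 (SE 0.39, adjusted p = 0.0487, limma). Oas1b (chromosome 5, 120812635 to 120824161, plus strand) held 6.55, 5.82, 11.5 and 7.70 CPM in KO, against 1.49, 1.77, 1.18 and 1.74 CPM in WT (1.77, SE 0.21, adjusted p = 0.0487). GENCODE M21 annotates Oas1b as a polymorphic pseudogene, and C57BL/6 mice are known to carry a truncating allele.

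Of 12 Oas genes, 9 passed the filter on low values, Oas1e through KO libraries alone. All 9 had an unadjusted p under 0.05 with KO higher (6.8% of all genes), and in 8 of them KO lay above WT without overlap (2.92% of all genes). The member with overlap was Oas1e. As it passed the filter through KO alone, it adds no support to the count of 9 or to the median. Of the 7 tested Oas1, Oas2 and Oas3 genes, which form a cluster of 177 kb on chromosome 5, 6 did not overlap. Oas1a held 104, 51.9, 238 and 173 CPM in KO, against 9.91, 37.7, 44.7 and 17.1 CPM in WT (2.34, SE 0.42, adjusted p = 0.0939). Oas1g held 51.0, 28.3, 115 and 61.2 CPM in KO, against 4.99, 14.6, 22.6 and 5.22 CPM in WT (2.41, SE 0.46, adjusted p = 0.106). Oas1a and Oas1g are close paralogs, so reads may be split between them in a way the sources used here do not give. The median over the 9 was 1.80, with 1.61 in amino and 2.06 in hydroxy. KO hydroxy 1 held the highest KO value in 9 of 9 and KO amino 2 the lowest in 6.

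**Figure D2:**
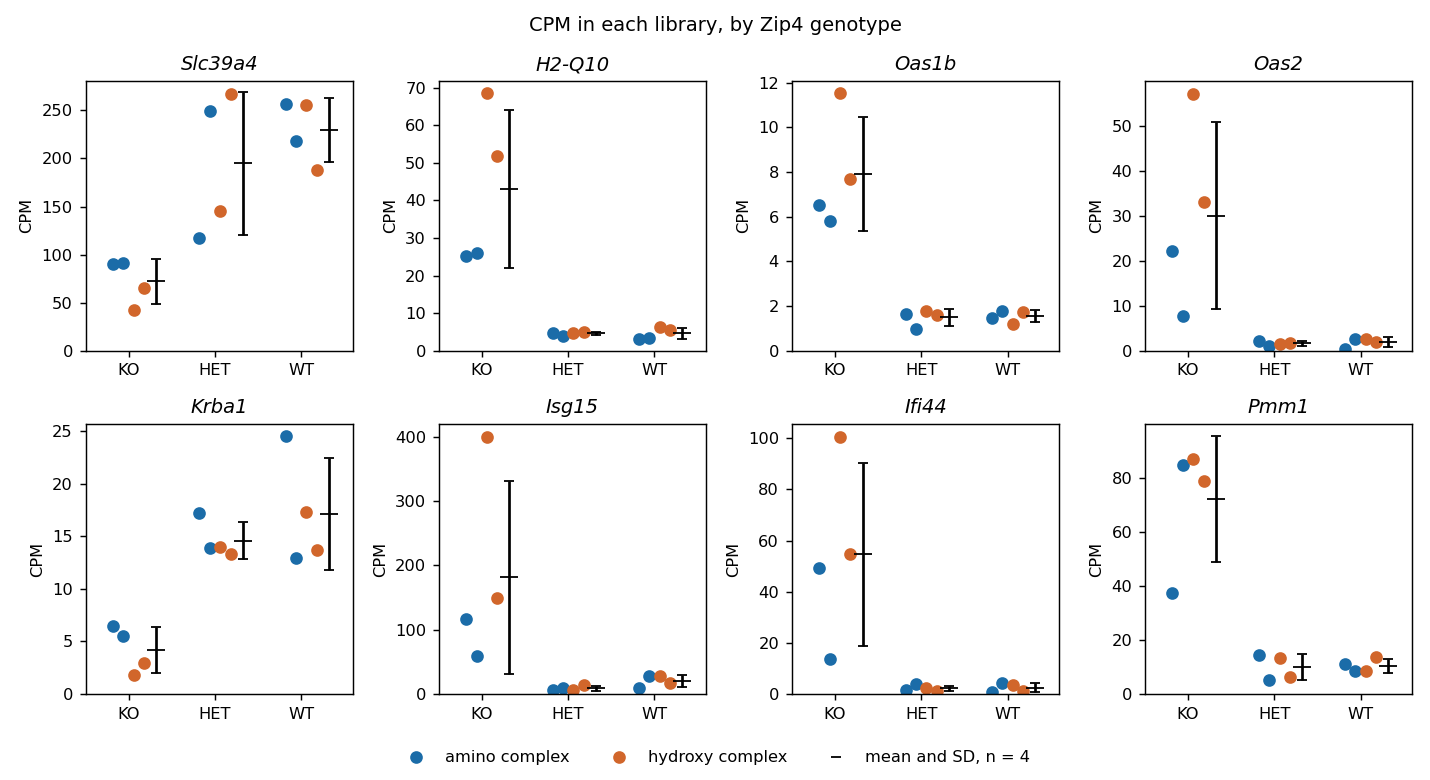
CPM (y axis) of 8 genes in each library, grouped by Zip4 genotype (KO, HET, WT) and coloured by zinc complex, with the mean and SD of 4 libraries beside each group. H2-Q10, Oas1b, Oas2, Isg15, Ifi44 and Pmm1 are higher in the 4 KO libraries than in any HET or WT library, and Slc39a4 and Krba1 are lower.

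Genes outside the Oas family that interferon is known to induce were mostly higher in KO. Type I and type III interferons act through a transcription factor complex that holds IRF9 and binds a motif called the ISRE in the promoters of these genes, and the gut epithelium responds above all to type III. Of 56 genes on the list, 54 were tested, Ifi44l is not analysed here and Phf11b was below the filter. None was called. At an unadjusted p under 0.05, 37 had KO higher (6.8% of all genes) and 0 had KO lower (2.99% of all genes). In 25, KO lay above WT without overlap (2.92% of all genes). The median log2 change was 1.15 (0.95 in amino and 1.35 in hydroxy), against 0.02 over all genes, and 50 of 54 were above 0. The heat map shows the members by library.

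Isg15, a ubiquitin-like protein that is coupled to other proteins, held 116, 58.9, 399 and 150 CPM in KO, against 9.23, 28.0, 27.9 and 17.1 CPM in WT (2.85, SE 0.44, adjusted p = 0.064). Ifi44 held 49.4, 13.5, 100 and 54.8 CPM in KO, against 0.664, 4.28, 3.42 and 1.28 CPM in WT, the largest log2 change of the list (3.88, SE 0.51, adjusted p = 0.053). In both genes the KO and WT libraries were separate, and KO amino 2 was the nearest to WT. Ifit3, which binds viral RNA with its partners, held 46.9, 36.1, 206 and 57.8 CPM in KO, against 7.76, 7.93, 12.5 and 16.9 CPM in WT (2.54, SE 0.33, adjusted p = 0.053). Its close paralog Ifit3b is counted as a gene of its own, and how shared reads were split is not known. Bst2, or tetherin, which holds budding virus at the cell surface, held 88.1, 26.8, 215 and 255 CPM in KO, against 13.8, 18.4, 26.6 and 17.8 CPM in WT (2.46, SE 0.33, adjusted p = 0.055). Bst2 in KO amino 2 was just above the highest WT library, and the other KO libraries were far above it. Among regulators, Dhx58, an RNA sensor, stood at 2.14 (SE 0.35, adjusted p = 0.0758) and Usp18, which removes ISG15 from its targets, at 2.32 (SE 0.54, adjusted p = 0.205), both without overlap.

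The promoters of 4 of these genes are shown because they carry the letters of the ISRE core. The search was for GAAANNGAAA on both strands in the 250 bases before the RefSeq start (build GRCm38.p6, the assembly of mm10), and matches were allowed to overlap. A promoter entry was found for 39 of the 54 interferon-stimulated genes, of which 18 (46.2%) held a match, and for 6 of the 9 Oas genes, of which 4 (66.7%) held 1. Over all tested genes with an entry, 366 of 10886 (3.36%) did. Sequences run 5′ to 3′ along the gene's strand, and capitals mark the matches. Isg15 (chr4:156200819-156201068, minus strand) has 3 overlapping matches, which begin 78, 72 and 66 bases before the start. Ifit3 (chr19:34583279-34583528, plus strand) has 2 on the opposite strand, Bst2 (chr8:71537473-71537722, minus strand) has 2 that overlap, and Oas1g (chr5:120887614-120887863, minus strand) has 2 that overlap within 18 bases of the start.
Isg15: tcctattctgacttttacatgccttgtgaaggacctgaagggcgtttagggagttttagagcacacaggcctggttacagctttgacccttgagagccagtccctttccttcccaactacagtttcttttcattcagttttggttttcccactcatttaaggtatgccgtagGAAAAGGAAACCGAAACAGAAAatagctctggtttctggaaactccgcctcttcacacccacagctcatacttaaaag
Ifit3: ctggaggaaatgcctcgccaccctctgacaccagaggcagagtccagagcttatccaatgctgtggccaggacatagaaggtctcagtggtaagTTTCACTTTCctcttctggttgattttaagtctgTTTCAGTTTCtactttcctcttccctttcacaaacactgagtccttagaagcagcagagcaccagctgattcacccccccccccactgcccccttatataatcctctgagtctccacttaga
Bst2: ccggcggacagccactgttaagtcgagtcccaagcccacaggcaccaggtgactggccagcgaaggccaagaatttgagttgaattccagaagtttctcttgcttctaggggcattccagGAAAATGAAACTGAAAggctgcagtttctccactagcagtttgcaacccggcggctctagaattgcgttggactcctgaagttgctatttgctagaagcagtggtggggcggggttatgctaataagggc
Oas1g: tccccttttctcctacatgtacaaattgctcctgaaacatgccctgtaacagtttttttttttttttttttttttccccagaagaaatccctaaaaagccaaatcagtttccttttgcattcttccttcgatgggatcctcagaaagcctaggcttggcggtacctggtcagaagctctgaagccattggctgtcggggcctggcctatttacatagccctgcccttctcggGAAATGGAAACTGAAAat
The windows of H2-Q10 and Krba1 hold no match, and neither does that of Ifi44, which says only that these letters are not in those windows. For the interferon-stimulated genes without overlap, 10 of 19 with an entry held a match (52.6%), and for those with overlap 8 of 20 (40.0%). A match is a description of the sequence and not a site.

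**Figure D3:**
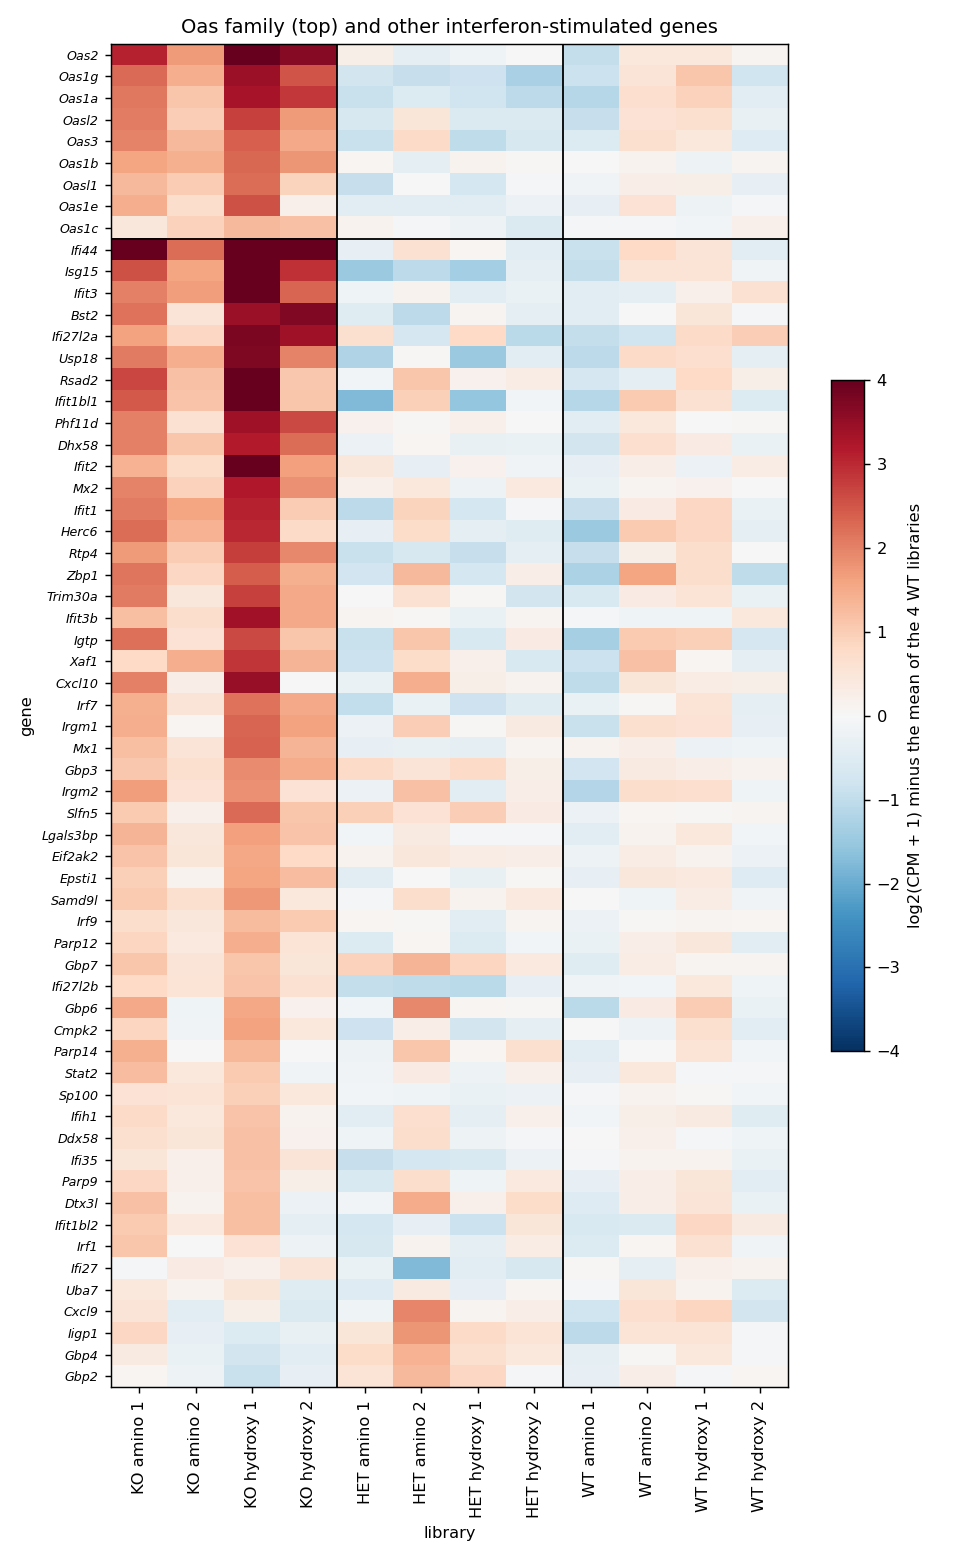
Rows are the 9 tested Oas genes (above the line) and other interferon-stimulated genes, columns are the 12 libraries (KO, HET, WT), and colour is log2(CPM + 1) minus the mean of the 4 WT libraries, with the scale ending at 4 in each direction. KO hydroxy 1 is the reddest column, with the highest KO value in 45 of the 54 tested, and KO amino 2 the palest KO column, with the lowest in 31.

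The transcription factors Irf9 and Irf7 were higher in KO, and neither was called. Irf9 held 42.2, 35.0, 62.6 and 53.2 CPM in KO, against 21.3, 26.5, 27.7 and 26.8 CPM in WT, without overlap (0.86, SE 0.15, adjusted p = 0.0927). Irf7, which amplifies the response, held 259, 138, 438 and 280 CPM in KO, against 81.2, 101, 144 and 74.9 CPM in WT, and KO amino 2 overlapped with WT hydroxy 1 (1.40, SE 0.29, adjusted p = 0.133). The 4 members with a log2 change below 0 were Gbp2 (−0.33), Gbp4 (−0.27), Iigp1 (−0.09) and Cxcl9 (−0.07), none with an unadjusted p under 0.05. They were named after their values were seen. Cxcl9, a chemokine that draws T cells, held 7.72, 3.5, 6.15 and 3.09 CPM in KO, against 2.53, 8.70, 10.1 and 2.66 CPM in WT.

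Within WT, the same libraries were highest for the interferon-stimulated, MHC class II and T cell lists. The interferon-stimulated genes had a median level on the log2(CPM + 1) scale of 5.81, 5.12, 6.52 and 5.61 in KO, against 3.60, 4.88, 4.82 and 4.21 in WT, so the lowest KO library lay above the highest WT library. The MHC class II genes had medians of 6.45, 4.53, 5.89 and 4.35 in KO, against 4.61, 7.01, 7.14 and 4.42 in WT, and their summed level was 1106 to 3878 CPM in KO and 911.6 to 6199 CPM in WT. T cell and intraepithelial lymphocyte markers, of which 0 of 17 had an unadjusted p under 0.05, summed to 72.2 to 156.9 CPM in KO and 52.42 to 175.9 CPM in WT. WT amino 2 and WT hydroxy 1 were thus the higher WT libraries for all 3 lists, while KO hydroxy 1 led the interferon-stimulated genes and not the other lists. The part of immune cells in the result was not tested. Without KO amino 1, 27 of the 54 did not overlap with KO above WT (background 5.09%), and without WT hydroxy 1, 28 did not (background 4.69%), with 8 of 9 Oas genes in each case. Leaving out a library can only keep or raise such a count, so these counts cannot show how firm the pattern is. The median log2 change of the list was 0.897 without KO amino 1, 0.855 without KO hydroxy 1 and 0.991 without WT amino 1. It was 1.37 without KO amino 2, 1.33 without KO hydroxy 2 and 1.26 without WT amino 2.

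Other genes that the rule named as higher in KO had separate groups and were not called. By the rule for named genes, 12 genes each way with the smallest p and 10 with the largest log2 change were taken among those at 5 CPM or more whose groups did not overlap. Pmm1, a phosphomannomutase of sugar activation for glycosylation, held 37.5, 84.8, 87.1 and 78.9 CPM in KO, against 11, 8.33, 8.42 and 13.7 CPM in WT (2.64, SE 0.37, adjusted p = 0.055). Acta1, the actin of skeletal muscle, held 64.7, 22.2, 26.6 and 33.1 CPM in KO, against 6.80, 4.65, 6.21 and 2.46 CPM in WT (2.59, SE 0.37, adjusted p = 0.0593). In both genes HET libraries resembled WT, with 5.21 to 14.6 CPM of Pmm1 and 2.14 to 5.58 CPM of Acta1. Paqr9, a membrane receptor of the progestin and adipoQ family, held 14.7, 26.8, 32.2 and 12.2 CPM in KO, against 1.64, 1.91, 1.34 and 6.30 CPM in WT (2.63, SE 0.52, adjusted p = 0.125). Ppa1, a cytosolic pyrophosphatase, held 238, 291, 422 and 344 CPM in KO, against 120, 188, 146 and 165 CPM in WT (1.05, SE 0.17, adjusted p = 0.0734). Sass6, a centriole assembly protein (1.39, adjusted p = 0.0624), and Ogfr, the opioid growth factor receptor (0.81, adjusted p = 0.0624), also had separate groups. Pmm1 lies on the chromosome of Slc39a4 (chromosome 15, 81951106 to 81960931). On that chromosome the groups did not overlap for 4.94% of 547 tested genes, against 5.49% of all genes.

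Krba1 was the 1 gene that fell at the adjusted threshold. It encodes a protein with a KRAB-A domain, a repressor module of zinc finger factors. Krba1 (chromosome 6, 48395586 to 48419856, plus strand) held 6.49, 5.55, 1.77 and 2.96 CPM in KO, against 24.5, 12.9, 17.3 and 13.7 CPM in WT. HET libraries held 17.3, 13.9, 14.0 and 13.3 CPM, so that KO stood below both. The log2 change was −1.87 (SE 0.23, adjusted p = 0.0487, limma), with −1.43 in amino and −2.31 in hydroxy.

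The calls of Oas1b, Oas2 and Krba1 lay close to the threshold, and leaving out most of the single libraries ended them. The adjusted p without KO amino 1, KO hydroxy 1, WT amino 1, WT hydroxy 1 or WT hydroxy 2 was 0.141, 0.218, 0.281, 0.18 and 0.189 for Oas1b. For Oas2 these were 0.14, 0.218, 0.271, 0.172 and 0.189, and for Krba1 0.141, 0.218, 0.271, 0.184 and 0.189. Without KO amino 2 it was 0.0703 for Oas1b and 0.0917 for Krba1, without KO hydroxy 2 it was 0.0776 for Oas2 and 0.0609 for Krba1, and without WT amino 2 it was 0.0732 for Oas1b. Without HET amino 1, HET amino 2, HET hydroxy 1 or HET hydroxy 2 it was 0.0662, 0.0687, 0.0712 and 0.0717 for each of the 3 genes. The log2 changes over these fits stayed between 1.64 and 1.91 for Oas1b, between 2.86 and 3.56 for Oas2 and between −2.09 and −1.65 for Krba1.

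Genes beside Krba1 were lower in KO as well. Between Krba1 and Atp6v0e2, a stretch of 146 kb (chromosome 6, 48395586 to 48541801), 5 genes were tested, and 4 of them had KO below WT without overlap. Atp6v0e2, a subunit of the vacuolar proton pump, held 20.0, 17.5, 13.3 and 16.1 CPM in KO, against 37.4, 28.3, 38.4 and 33.8 CPM in WT (−1.0, SE 0.16, adjusted p = 0.0758). Zfp467, a zinc finger factor, held 5.64, 6.69, 2.79 and 5.33 CPM in KO, against 16.3, 7.86, 11.9 and 15.9 CPM in WT (−1.19, SE 0.31, adjusted p = 0.274). Zfp862-ps did not overlap either (−0.71, SE 0.35, adjusted p = 0.54), and Sspo, at or below 1.49 CPM in the 8 libraries, stood at 0.02. A second stretch lies on chromosome 2 (25228897 to 25255415, 26.5 kb), where 3 of 3 tested genes had KO below WT without overlap. Ndor1, a diflavin reductase that feeds iron-sulfur cluster assembly, held 13.9, 7.90, 6.99 and 7.54 CPM in KO, against 28.0, 23.3, 25.4 and 21 CPM in WT (−1.37, SE 0.20, adjusted p = 0.0565). Its neighbour Rnf208, a RING finger protein, held 2.72, 0.713, 0.330 and 0.499 CPM in KO, against 18.2, 6.52, 9.44 and 4.23 CPM in WT (−2.32, SE 0.41, adjusted p = 0.0927). Slc34a3, a phosphate transporter of the kidney, was close to the floor (−1.10, SE 0.28, adjusted p = 0.257). Both stretches were chosen after the values were seen, and they begin and end at genes without overlap. That choice fixed the counts in them in part, so they are no test against the 2.57% of all genes with KO below WT without overlap. Since the sources used here do not give the strand, reads of neighbours cannot be told apart where they overlap.

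Other genes that the rule named as lower in KO had separate groups, which the rule required, and were not called. Sgk1, a kinase that glucocorticoids and mineralocorticoids induce and that raises sodium uptake, held 28.4, 66.3, 29.9 and 48.4 CPM in KO, against 345, 158, 91.1 and 135 CPM in WT (−1.96, SE 0.35, adjusted p = 0.0927). Its highest KO library, amino 2, was below the lowest WT library. Npl, which degrades sialic acid, held 20.0, 7.68, 11.3 and 4.86 CPM in KO, against 70.5, 36.4, 76.3 and 31.2 CPM in WT (−2.25, SE 0.45, adjusted p = 0.131). Ocm, the calcium-binding oncomodulin, held 3.45, 1.24, 1.26 and 0.374 CPM in KO, against 14.8, 12.2, 18.7 and 5.97 CPM in WT (−2.46, SE 0.48, adjusted p = 0.121). Pipox, a peroxisomal oxidase of sarcosine and pipecolate, held 23.9, 23.2, 10.05 and 7.14 CPM in KO, against 37.4, 29.0, 29.0 and 34.5 CPM in WT, lower in the hydroxy than in the amino KO libraries (−1.13, SE 0.18, adjusted p = 0.0734). Smad6, an inhibitor of BMP signalling (−0.88, adjusted p = 0.0857), Epb41l1 (−1.06, adjusted p = 0.0869), Foxo6 (−1.73, adjusted p = 0.117) and Pmp22 (−1.82, adjusted p = 0.217) also had separate groups.

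Genes of fatty acid oxidation and other PPARA targets were mostly higher in KO. Of 25 tested, 9 had an unadjusted p under 0.05 with KO higher and 1 with KO lower (6.8% and 2.99% of all genes). A log2 change above 0 was found in 23, and the median was 0.29. Without KO amino 1, which held the lowest KO value in 19 of the 25, the median was 0.48. KO then lay above WT without overlap in 11 members, against 3 with it (background 5.09% and 2.92%). Leaving out a library can only keep or raise that count, and the library left out was mostly the lowest in KO, so the rise gives no support. The median fell to 0.21 without KO amino 2 and 0.25 without KO hydroxy 2. It was 0.39 without KO hydroxy 1, 0.44 without WT amino 1 and 0.34 without WT amino 2. Acadl, the long-chain acyl-CoA dehydrogenase, held 155, 252, 343 and 424 CPM in KO, against 75.0, 91.8, 74.6 and 139 CPM in WT, without overlap (1.57, SE 0.35, adjusted p = 0.164). Hadha, of the mitochondrial trifunctional protein, held 294, 324, 409 and 361 CPM in KO, against 214, 241, 280 and 254 CPM in WT (0.48, SE 0.12, adjusted p = 0.259). Slc25a20, the carnitine carrier (0.51, adjusted p = 0.255), and Plin2, a coat protein of lipid droplets (0.62, adjusted p = 0.266), overlapped in part. The member in the other direction was Angptl4, an inhibitor of lipoprotein lipase, with 18.7, 9.23, 29.3 and 24.7 CPM in KO, against 39.2, 72.0, 24.9 and 24.5 CPM in WT (−0.91, SE 0.31, adjusted p = 0.407). Of 30 subunits of the respiratory chain, KO lay above WT without overlap in 1 (2.92% of all genes). Without KO amino 1 the number was 19 (5.09% of all genes). KO amino 1 had the lowest median level of these subunits in KO (8.03 on the log2(CPM + 1) scale). Leaving it out could only keep or raise the number, so the rise gives no support. These subunits had a median of 0.23, with 28 above 0. At an unadjusted p under 0.05, 4 of 30 had KO higher (6.8% of all genes). That count was 0 without KO amino 2 or WT amino 1, 1 without WT hydroxy 1 or WT hydroxy 2, and 2 without KO amino 1 or KO hydroxy 2.

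Targets of ATF4, the transcription factor of the amino acid response, had mostly higher values in KO, and none was called. KO lay above WT without overlap in 0 of 23 (2.92% of all genes). Of the 23, 8 had an unadjusted p under 0.05 with KO higher and 0 with KO lower (6.8% and 2.99% of all genes). The median was 0.42 (0.19 in amino and 0.71 in hydroxy). Asns, asparagine synthetase, held 21.3, 12.6, 41.2 and 42.9 CPM in KO, against 8.79, 22.8, 11.7 and 16.6 CPM in WT (0.86, SE 0.28, adjusted p = 0.399). Both hydroxy KO libraries were above all WT libraries, while the amino KO libraries lay within the WT range. Chac1, which degrades glutathione, held 4.12, 0.682, 15.1 and 6.14 CPM in KO, against 0.316, 0.937, 1.34 and 1.64 CPM in WT (1.49, SE 0.37, adjusted p = 0.254). Cth, the cystathionine lyase that makes cysteine, had the smallest p of the list (0.60, SE 0.13, adjusted p = 0.156). The count was 3 without KO amino 1, 4 without KO hydroxy 2, 5 without WT amino 1 and 6 without WT hydroxy 2.

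Genes of DNA replication and mitosis were higher in KO, but the size of the shift and the p-value counts depended on single libraries. Of 24 tested, 15 had an unadjusted p under 0.05 with KO higher (6.8% of all genes). All 24 had a log2 change above 0, with a median of 0.60 (0.22 in amino and 1.02 in hydroxy). In 1 of the 24 (4.17%), KO lay above WT without overlap, near the 2.92% of all genes. Plk1, a mitotic kinase, held 26.3, 17.0, 30.7 and 61.0 CPM in KO, against 11.5, 22.2, 18.7 and 17.2 CPM in WT (0.80, SE 0.28, adjusted p = 0.407). Mcm7, of the replicative helicase, held 25.3, 15.1, 30.5 and 49.8 CPM in KO, against 13.9, 19.6, 17.2 and 19.6 CPM in WT (0.64, SE 0.23, adjusted p = 0.423). KO hydroxy 2 had the highest KO value in 24 of 24 members and KO amino 2 the lowest in 24. The count of 15 was 0 without KO amino 1, without KO hydroxy 2 or without WT amino 1, 8 without WT hydroxy 1 and 5 without WT hydroxy 2. The share of all genes higher at that level also fell in each of these fits. All 24 members stayed above 0 without KO amino 1 (median 0.499), KO hydroxy 2 (0.381) or WT amino 1 (0.457). Ribosomal protein genes had their highest median in KO hydroxy 2 as well, with 31 of 31 above 0 and a median of 0.30. Of the 31, 0 had an unadjusted p under 0.05, and the summed level was 2623 to 6646 CPM in KO and 2301 to 3395 CPM in WT.

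**Figure D4:**
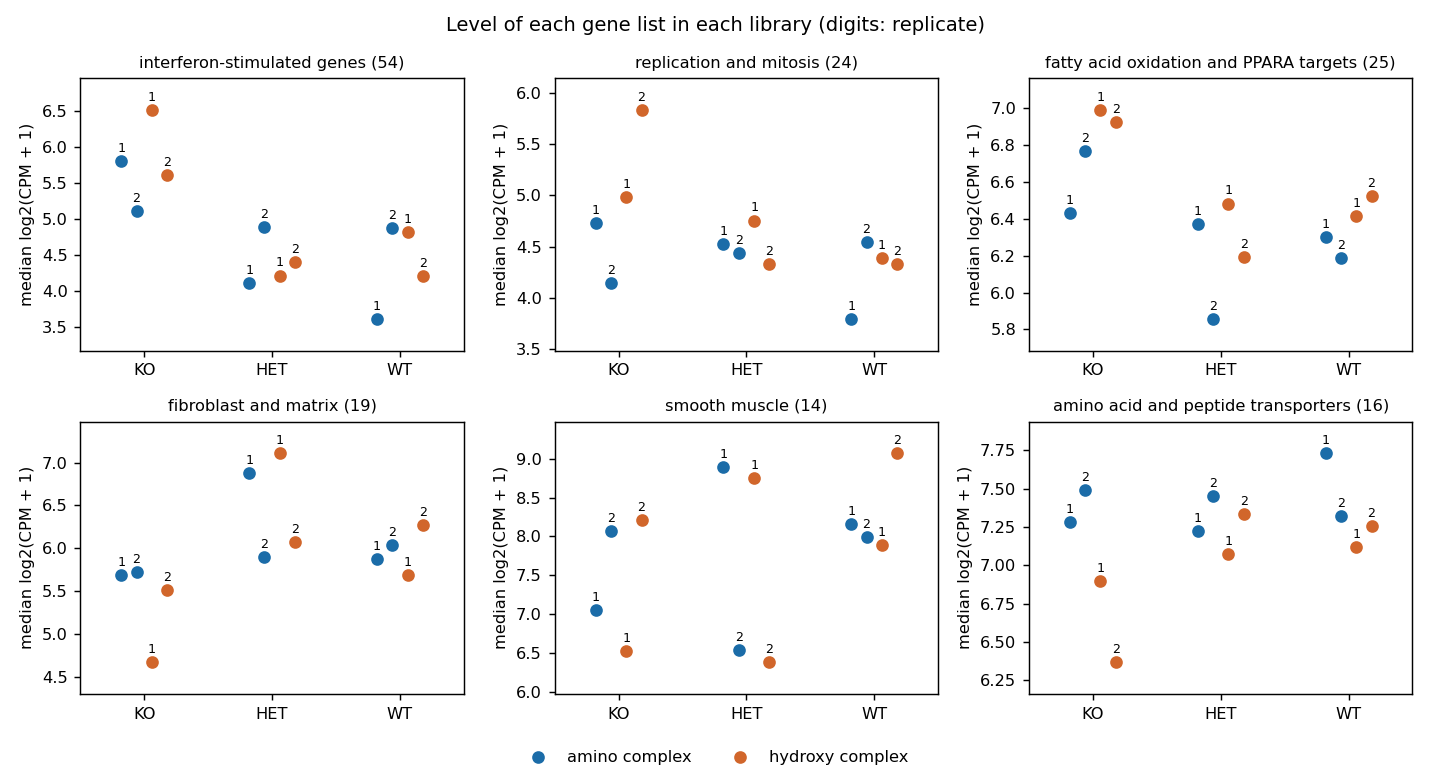
Each point is the median log2(CPM + 1) of a gene list in 1 library (y axis), by genotype (KO, HET, WT) and coloured by zinc complex, with the replicate digit beside it and the number of members in the title. Interferon-stimulated genes are separate between KO (5.12 to 6.52) and WT (3.60 to 4.88), while replication genes overlap, with KO hydroxy 2 highest (5.83) and WT amino 1 lowest (3.79).

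Most stem cell markers had log2 changes above 0 and most enterocyte markers below 0, and none was called. Of 13 stem cell markers, 10 were above 0. In KO, 2 were higher and 1 lower at an unadjusted p under 0.05 (6.8% and 2.99% of all genes). Their median of 0.31 rested in part on single libraries. It was 0.04 without KO hydroxy 2, with 7 of 13 above 0, and 0.12 without WT amino 1, with 9 above 0. Without KO hydroxy 1 it was 0.55, with 11 above 0. Lgr5, the receptor that marks crypt base stem cells, held 4.77, 4.93, 2.61 and 3.12 CPM in KO, against 5.69, 7.93, 6.56 and 9.64 CPM in WT, without overlap (−0.81, SE 0.25, adjusted p = 0.358). Aqp4, a water channel of crypt cells, held 9.62, 5.45, 11.6 and 19.7 CPM in KO, against 3.29, 6.79, 6.47 and 5.87 CPM in WT (0.85, SE 0.28, adjusted p = 0.407). Of 23 enterocyte markers, 18 were below 0, with a median of −0.25. At that unadjusted level 4 were lower and 0 higher (2.99% and 6.8% of all genes). Cubn, the receptor for intrinsic factor and vitamin B12, held 238, 102, 42.1 and 46.0 CPM in KO, against 620, 103, 300 and 322 CPM in WT (−1.75, SE 0.52, adjusted p = 0.342). Slc15a1, the peptide transporter PEPT1, held 475, 415, 265 and 172 CPM in KO, against 864, 548, 570 and 399 CPM in WT (−0.89, SE 0.34, adjusted p = 0.449). The count of 4 was 2 without KO amino 1, KO amino 2 or WT hydroxy 1, and 1 without KO hydroxy 2 or WT amino 1.

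Among 16 transporters of amino acids and peptides the median was −0.31. At an unadjusted p under 0.05, 5 were lower and 0 higher (2.99% and 6.8% of all genes). The count was 3 without KO amino 1, KO amino 2, WT amino 2 or WT hydroxy 1, 2 without WT amino 1 and 1 without KO hydroxy 2. KO lay below WT without overlap in 0 of the 16 transporters (2.57% of all genes). Their median level was 7.29, 7.49, 6.90 and 6.37 in KO, against 7.73, 7.32, 7.12 and 7.26 in WT on the log2(CPM + 1) scale, lowest in the hydroxy KO libraries. Slc43a2, an exporter of neutral amino acids, held 648, 476, 330 and 177 CPM in KO, against 914, 822, 710 and 450 CPM in WT (−0.93, SE 0.36, adjusted p = 0.451). Of 14 brush border enzymes that use zinc, 2 were lower and 1 higher at an unadjusted p under 0.05 (2.99% and 6.8% of all genes). Xpnpep2, an aminopeptidase, held 147, 36.8, 34.5 and 18.6 CPM in KO, against 318, 179, 306 and 99.4 CPM in WT (−2.21, SE 0.67, adjusted p = 0.351). The enzyme in the other direction was Car4, a carbonic anhydrase (0.67, SE 0.29, adjusted p = 0.496).

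Markers of gut segments differed between libraries of 1 genotype. The ileal list had a median of −0.55, which was −0.15 without WT hydroxy 1, the WT library with the highest Fabp6, and −1.16 without WT hydroxy 2. Of its 11 members, 1 was higher and 2 lower at an unadjusted p under 0.05 (6.8% and 2.99% of all genes). The 11 summed to 652.5 to 1083 CPM in KO and 1061 to 1921 CPM in WT. The duodenal and proximal list had a median of 0.59, with 1 of 8 higher at that level (6.8% of all genes). Its summed level was 3314 to 7272 CPM in KO and 2131 to 3916 CPM in WT. Their part in the differences of enterocyte genes was not tested.

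Markers of the gut wall beneath the epithelium had list medians below 0, and no gene of these lists was called. Of 19 fibroblast and matrix genes, 6 had an unadjusted p under 0.05 with KO lower and 0 with KO higher (2.99% and 6.8% of all genes). KO lay below WT without overlap in 4 (2.57% of all genes). Of the 19, 0 had a log2 change above 0, with a median of −0.62 (−0.26 in amino and −0.92 in hydroxy). Col6a1, a chain of collagen VI, held 50.5, 59.9, 24.4 and 46.8 CPM in KO, against 74.4, 65.2, 60.0 and 86.5 CPM in WT (−0.70, SE 0.26, adjusted p = 0.438). KO hydroxy 1 held the lowest KO value in 18 of the 19, and the summed level was 554.8 to 1202 CPM in KO and 1052 to 1685 CPM in WT. The count of 6 was 3 without KO amino 2, 2 without KO amino 1, 1 without KO hydroxy 1 or WT amino 1, 0 without WT hydroxy 2, 10 without WT hydroxy 1 and 11 without KO hydroxy 2. Smooth muscle markers had a median of −0.78, with 0 of 14 above 0 and 0 at an unadjusted p under 0.05. Without KO hydroxy 1 that median was −0.37 and without WT hydroxy 2 it was −0.41, while it was −1.2 without KO hydroxy 2. Myh11, the smooth muscle myosin, held 397, 895, 209 and 658 CPM in KO, against 888, 756, 436 and 1957 CPM in WT, with overlap. Neuron and glia markers had a median of −0.55, with 2 of 15 lower at that level (2.99% of all genes), Vip and Ret. It was −0.21 without KO hydroxy 1 and −0.27 without WT hydroxy 2, with 0 at that level in either case, and −0.88 without KO hydroxy 2. The count was also 0 without KO amino 1 or WT amino 1, and 1 without WT amino 2. Vip, a peptide of enteric neurons that relaxes muscle, held 11.9, 20.8, 12.3 and 20.4 CPM in KO, against 29.0, 30.4, 25.4 and 36.6 CPM in WT, without overlap (−0.89, SE 0.35, adjusted p = 0.459). Of 13 endothelial genes, 1 was lower at an unadjusted p under 0.05 (2.99% of all genes), Kdr (−0.58, adjusted p = 0.407).

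Immune cell markers gave no shift that held in both complexes. B cell and plasma cell genes had a median of −0.44 in amino and 1.22 in hydroxy. At an unadjusted p under 0.05, 1 of 12 was higher (6.8% of all genes). Bank1, a B cell adaptor, held 1.23, 0.836, 2.91 and 3.02 CPM in KO, against 0.443, 1.47, 0.448 and 0.984 CPM in WT (0.66, SE 0.27, adjusted p = 0.47). Of 18 macrophage and dendritic cell markers, 0 had an unadjusted p under 0.05, with a summed level of 261.3 to 350.1 CPM in KO and 266.2 to 339.3 CPM in WT.

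**Figure D5:**
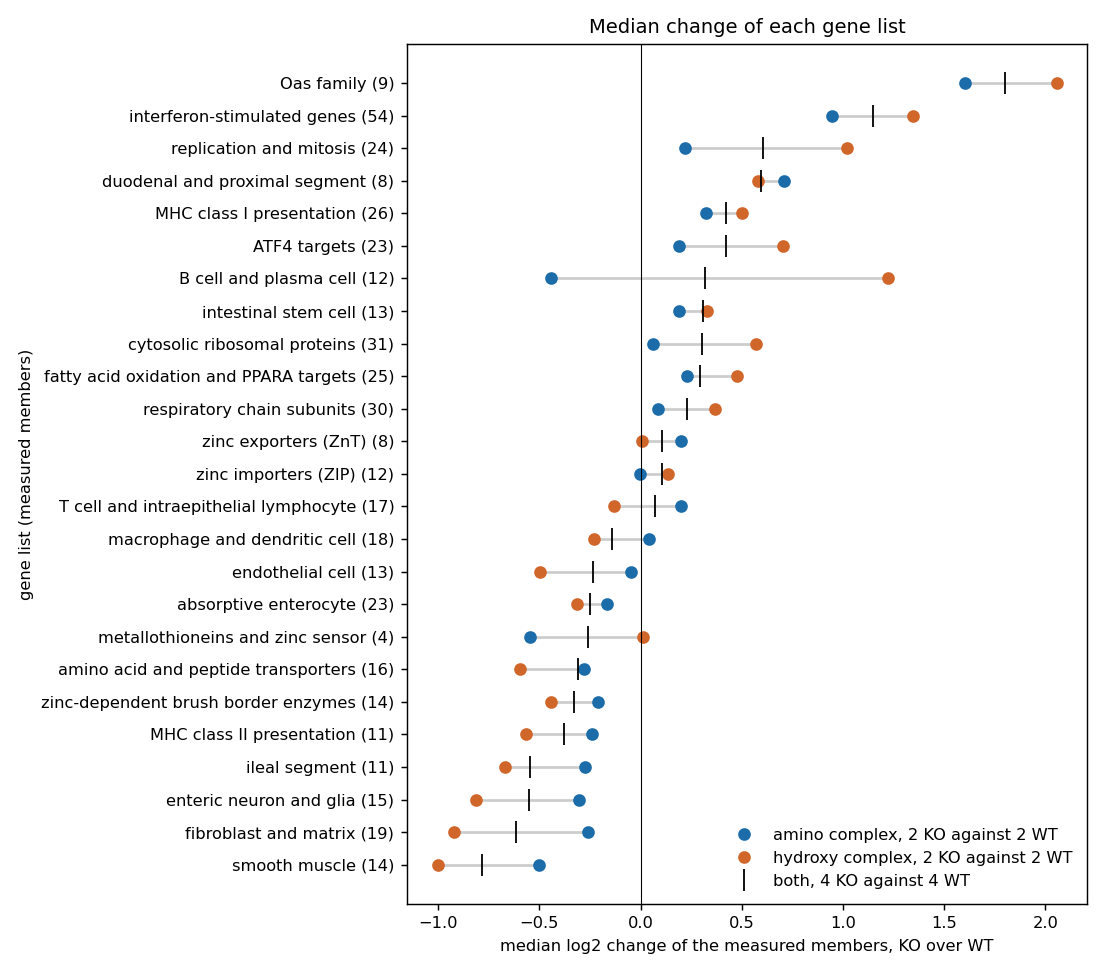
Median log2 change of KO over WT (x axis) for the measured members of each of 25 gene lists (y axis, with their number), in both complexes (black bars) and in each complex (coloured points). The Oas and interferon-stimulated genes are above 0.9 in both complexes, and most other lists lie farther from 0 in hydroxy than in amino, replication genes at 1.02 against 0.22 and fibroblast genes at −0.92 against −0.26.

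Within each complex 2 KO libraries were set against 2 WT libraries. In the hydroxy complex 2 genes were called (0.0143%) and 1919 had an unadjusted p under 0.05 (13.7%), and in the amino complex 1 gene was called (0.00714%) and 310 had an unadjusted p under 0.05 (2.21%). The difference between the complexes was tested in the same model, and 0 of 14001 genes passed, with 530 at an unadjusted p under 0.05 (3.79%). The smallest p belonged to Lrp12, a receptor of the LDL receptor family, with 36.4, 26.8, 9.99 and 7.89 CPM in KO, against 45.6, 30.4, 51.9 and 43.6 CPM in WT. Its log2 change was −2.30 in hydroxy and −0.25 in amino (interaction adjusted p = 0.992). Gatsl2 held 31.8, 28.7, 8.10 and 5.89 CPM in KO, against 37.5, 25.1, 22.2 and 27.8 CPM in WT (−1.71 in hydroxy and −0.02 in amino). Timmdc1, an assembly factor of complex I, stood at 0.99 in hydroxy and −0.32 in amino, and Crebrf at −0.88 in hydroxy and 1.30 in amino.

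KO was also compared with HET, which shares the KO libraries, so the values stand side by side and no overlap is drawn. There, 957 of 14001 genes were called (6.84%), 481 higher (3.44%) and 476 lower in KO (3.4%), with HET mice of 141, 143, 338 and 363 days. That count depended on single libraries, and it was above 957 without HET amino 1 or HET hydroxy 2. It was 1 without HET hydroxy 1, 27 without KO amino 2, 29 without KO amino 1, 108 without HET amino 2, 109 without KO hydroxy 1 and 170 without KO hydroxy 2. With a WT library left out, which changes the estimate of the spread alone, it was 289 without WT amino 1, 292 without WT amino 2, 420 without WT hydroxy 1 and 479 without WT hydroxy 2. The calls given next hold for the fit of all 12 libraries. H2-Q10 stood at 2.85 (adjusted p = 2.18e-04), Oas2 at 3.29 (adjusted p = 0.0124), Oas1b at 1.81 (adjusted p = 0.0124) and Krba1 at −1.69 (adjusted p = 0.0144). Isg15 (3.91, adjusted p = 0.0124), Bst2 (2.90, adjusted p = 0.0124) and Pmm1 (2.79, adjusted p = 0.0136) were called as well, and so was Slc39a4 (−1.40, adjusted p = 0.0273). Of the 54 interferon-stimulated genes, 23 were called higher and 1 lower, Gbp4 (−1.06, adjusted p = 0.0397), and of the 9 Oas genes 8 were called higher. Of the genes beside Krba1 and Ndor1, Atp6v0e2 (−0.46, adjusted p = 0.107) and Rnf208 (−1.25, adjusted p = 0.0914) did not pass against HET, and Ndor1 did (−1.03, adjusted p = 0.0255).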

How the data were processed

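The authors deposited 1 table of CPM (counts scaled to the depth of the library) for 17112 genes in 12 libraries, with 0.0001 added to each value, which was subtracted. Partek, TopHat2 and mm10 are named per the submitters' processing notes, without versions. The sources used here give no strand, annotation or rule for shared reads. Depth (26031951 to 38790537 reads) was inferred from the smallest steps of the values. Between 90.9% and 92.4% of values lay within 0.05 of whole reads, too few for a count test. Gene names turned into dates (23) were restored, and 16849 symbols (98.5%) matched GENCODE M21.

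The 14001 genes that reached 1 CPM in 2 or more libraries were tested on log2(CPM + 1) with limma 3.58.1 in R 4.3.3, with 6 group means over all 12 libraries (6 residual degrees of freedom), a trend in the prior and Benjamini-Hochberg adjustment over all genes. KO minus WT was averaged over the complexes. Slc39a4 also had an exact permutation test over the 8 libraries. The fit was tested on simulated data. Genes were named by rule: the markers, called genes, those with the smallest p or largest change among genes without overlap, and up to 4 members per list. Some genes under the rule are not reported here. Other genes were named for position or role after their values were seen. The comparison and the lists were chosen with earlier results of these data known. Alternatives covered the pseudocount, filter, scaling, prior, library weights, age, the libraries fitted and leaving out each library.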

Additional observations from a re-analysis of the deposited data

Results flagged for a closer look

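In 120 named genes, the 4 KO and the 4 WT libraries were each searched for 1 library far from the other 3 by Dixon's criterion at 95%, which chance meets in about 1 of 20 groups. Of 240 groups, 17 met it, 5 of them through KO amino 1 and 4 through KO hydroxy 2. No explanation was tested.

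KO amino 1 stood apart for Pmm1 at 37.5 CPM (78.9 to 87.1 in the other KO libraries), Ndor1 at 13.9 CPM (6.99 to 7.90), Rnf208 at 2.72 CPM (0.330 to 0.713), Fam118a at 29.6 CPM (22 to 23.3) and Xpnpep2 at 147 CPM (18.6 to 36.8). KO hydroxy 2 stood apart for the metallothionein genes Mt1 at 76.8 CPM (10.7 to 15.4) and Mt2 at 13.1 CPM (1.02 to 2.76), for Rpl27a, a ribosomal protein gene, at 42.5 CPM (15.2 to 19.7) and for Gata4, a factor of the proximal gut, at 108 CPM (134 to 137). KO hydroxy 1 stood apart for Ifit3 at 206 CPM (36.1 to 57.8).

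Among WT libraries, hydroxy 2 stood apart for Paqr9 at 6.30 CPM (1.34 to 1.91), Gkn3 at 4.43 CPM (0.301 to 0.822) and Actg2, an actin of enteric smooth muscle, at 597 CPM (264 to 318). WT hydroxy 1 stood apart for Tmem117 at 49.5 CPM (6.12 to 13.5) and Kdr at 23.2 CPM (27.3 to 27.9), WT amino 1 for Slc7a15 at 229 CPM (95.2 to 105), and WT amino 2 for Smad6 at 28.5 CPM (24.8 to 25.2).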

How the results depend on the processing

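The count of genes called between KO and WT, 4 in the report, was 1 with a pseudocount of 0.1 and with a mean of at least 5 CPM, 10 with a pseudocount of 5 and with median ratio rescaling, 10 with KO and WT fitted alone and the complex as an additive term (3 with no other term), 23 with quantile normalization and with age as a covariate, 32 with library weights, 32 without both KO amino libraries in a fit with additive terms, where 2 choices changed together, and 1 to 14 with single libraries left out. In amino (1 gene) it was 0 after quantile normalization and 0 to 4 with libraries left out. In hydroxy (2 genes) it was 6 with a pseudocount of 5, 5 without a filter or without a trend, 7 after quantile normalization, 10 after rescaling, 1 with weights, 11 with age and 0 to 3 with libraries left out. For the difference between complexes (0 genes) it was 1 without a filter and 0 to 2 with libraries left out. Between KO and HET (957 genes) it was 1651 after quantile normalization, 1448 after rescaling, 602 without a trend, 280 with weights, 1646 with age and 1 to 1393 with libraries left out. The cause of these shifts was not tested.

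Of the genes called higher and lower in KO than in WT (3 and 1), quantile normalization gave 18 and 5, and rescaling 9 and 1. H2-Q10 was called under all 24 alternatives, Oas2 and Krba1 under 10 and 8 of 24, and Oas1b under 10 of 23. The log2 change of Slc39a4 in the permutation test was −1.844 to −1.475 with libraries left out. The sign turned for Mt2 with a pseudocount of 5 (0.005573), without both KO amino libraries (0.9506) and within −0.5948 to 0.3584 with single libraries left out, for Mt1 without both KO amino libraries (0.1399), and for Crebrf without them (−0.4253) and within −0.04551 to 0.4648 with single libraries left out. Medians of lists that turned sign with a single KO or WT library left out were those of MHC class II (−1.02 to 0.316), macrophage (−0.263 to 0.0379), T cell (−0.34 to 0.404) and ZIP genes (−0.0263 to 0.189). Counts of groups without overlap after leaving out a library were added after seeing the data, and leaving out a library can only keep or raise them. No paired analysis was possible because the labels give no replicate numbers, and those used here only name libraries. Genes near 0.0773 to 0.115 CPM, the level of 3 reads, are limited by depth.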
